A study of Homo sapiens with 6 samples.

Results

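Interferon-stimulated genes were examined in U87 cells, an established human glioblastoma line, with and without knockdown of CHRM3, the M3 muscarinic acetylcholine receptor. The members were 44 genes taken from a fixed list of interferon-induced effectors and their regulators, out of 61731 genes and loci in the expression table, and all 44 were found by their current symbol. The study had 6 libraries, 3 of U87 cells labelled normal control (NC, called controls here) and 3 labelled CHRM knockdown (KD). Per the study's methods, knockdown was by lentivirus carrying a sequence against CHRM3, and cells were grown in modified Eagle's medium with fetal bovine serum, and no interferon treatment is named in the labels or methods. The sources used here do not say which of the study's 3 knockdown sequences these cells carried, which vector the controls received, or if the 3 libraries per group were independent cultures, so p-values measure only the spread between these libraries, which may be technical.

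Cells answer interferon through receptors at the surface. Type I and type III interferons activate JAK1 and TYK2, and STAT2 then joins IRF9 in the complex ISGF3. ISGF3 binds the interferon-stimulated response element (ISRE) in front of antiviral genes, whereas the answer to interferon gamma runs through JAK1 and JAK2 to the gamma-activated sequence (GAS). In tumour cells many of these genes are also transcribed at a basal level without added interferon.

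The values are TPM, a share of each library's transcripts corrected for gene length. Differences were tested with limma on log2(TPM + 1) over the 13722 genes that averaged 1 TPM or more, with Benjamini-Hochberg adjustment over all of them. A gene passed at an adjusted p under 0.05, and every adjusted p below is from this limma fit unless another is named. CHRM3 itself was 0.02, 0.09 and 0.13 TPM in control libraries 1, 2 and 3 and 0.13, 0.01 and 0.02 TPM in the libraries labelled knockdown, so the groups overlapped near the rounding step of the file and its reduction was not detectable here. Every direction below is therefore that of the knockdown-labelled libraries against the controls. Separately from these libraries, the study reports efficient CHRM3 knockdown in U87 cells. Between 22597 and 23311 genes were above 0 TPM in a library. VIM and CD44 were abundant in every library, whereas the glial markers GFAP, OLIG2, SOX2 and S100B did not exceed 1.46 TPM. NES, a neural progenitor marker, rose from 1.98 to 2.54 TPM in the controls to 3.23 to 4.01 TPM (log2 fold change 0.50, adjusted p = 0.0151), and the neuronal gene SNAP25 from 9.1 to 10.69 TPM to 13.54 to 14.19 TPM (0.47, adjusted p = 0.00255). The other neuron markers, RBFOX3 and SYT1, did not exceed 0.51 TPM, and the endothelial markers PECAM1, CDH5 and VWF did not exceed 0.17 TPM. The part of these genes in the results was not tested. Of 10 leukocyte markers, 9 stayed under 1 TPM in every library, among them PTPRC and TYROBP, and their summed level was 1.2 to 1.4 TPM in the controls and 0.52 to 1 TPM in the knockdown-labelled libraries. The exception was CD68, also a lysosomal protein gene, which brought the sum to between 250.1 and 254.5 TPM and between 171.0 and 177.9 TPM. In RNA from whole cultures, fewer cells expressing a gene and less RNA per cell cannot be told apart.

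Promoter windows of the members, 250 bases before to 50 after the transcription start, were read from RefSeq (GRCh38.p14) to show the element that the members share. The table held 35 of the 44 members. IRF7, IFIT2, OAS2, OASL, USP18, MX2, GBP2, IFITM2 and TRIM22 were not among them. An ISRE core, written GAAA, any 2 bases and GAAA and searched on both strands, was found in 25 of the 35 members (71.4%), and in 29 of the 45 member windows (64.4%) against 3.57% of the 35116 windows of all genes. A GAS core, TTCNNNGAA, which reads the same on both strands, was found in 12 of the 35 members, or in 13 of the 45 windows (28.9%) against 7.66% of all windows, and the motifs overlapped in 6 member windows. Of the members with a window, the ISRE core was in 3 of the 4 that rose after knockdown, 4 of the 7 that fell, 9 of the 12 that did not pass and 9 of the 12 that were too low to test. The motif was thus present among members that moved either way. The 6 windows shown are of GBP1 and IFI44L, which rose, of IFI44, HERC5 and PARP14, which fell, and of IFIT1, which was under 1 TPM. They run 5′ to 3′ in the direction of the gene, with the ISRE core in capitals.

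GBP1 (chr1:89065159-89065458, minus strand): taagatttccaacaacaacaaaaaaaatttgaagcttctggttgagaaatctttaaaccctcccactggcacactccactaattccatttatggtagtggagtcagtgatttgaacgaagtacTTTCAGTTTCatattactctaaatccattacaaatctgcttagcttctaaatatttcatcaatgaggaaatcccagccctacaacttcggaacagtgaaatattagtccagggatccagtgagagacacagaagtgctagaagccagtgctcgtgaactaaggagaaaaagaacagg
IFI44L (chr1:78620198-78620497, plus strand): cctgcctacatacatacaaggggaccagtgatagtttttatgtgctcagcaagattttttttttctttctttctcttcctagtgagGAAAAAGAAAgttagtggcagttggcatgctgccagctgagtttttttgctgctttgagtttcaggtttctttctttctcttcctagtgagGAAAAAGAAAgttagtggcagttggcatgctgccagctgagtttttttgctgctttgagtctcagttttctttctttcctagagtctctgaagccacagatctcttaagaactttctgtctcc
IFI44 (chr1:78649539-78649838, plus strand): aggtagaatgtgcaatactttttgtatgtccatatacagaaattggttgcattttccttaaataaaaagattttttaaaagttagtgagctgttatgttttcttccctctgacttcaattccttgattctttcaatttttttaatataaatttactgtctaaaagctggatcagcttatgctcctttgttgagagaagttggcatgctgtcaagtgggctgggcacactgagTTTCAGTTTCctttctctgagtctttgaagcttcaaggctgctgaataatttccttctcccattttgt
HERC5 (chr4:88456869-88457168, plus strand): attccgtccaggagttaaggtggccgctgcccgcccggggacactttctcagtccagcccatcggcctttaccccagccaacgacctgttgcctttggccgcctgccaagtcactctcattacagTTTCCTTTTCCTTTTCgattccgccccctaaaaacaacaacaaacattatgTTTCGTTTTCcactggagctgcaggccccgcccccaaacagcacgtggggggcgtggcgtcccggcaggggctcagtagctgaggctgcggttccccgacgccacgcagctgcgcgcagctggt
PARP14 (chr3:122680589-122680888, plus strand): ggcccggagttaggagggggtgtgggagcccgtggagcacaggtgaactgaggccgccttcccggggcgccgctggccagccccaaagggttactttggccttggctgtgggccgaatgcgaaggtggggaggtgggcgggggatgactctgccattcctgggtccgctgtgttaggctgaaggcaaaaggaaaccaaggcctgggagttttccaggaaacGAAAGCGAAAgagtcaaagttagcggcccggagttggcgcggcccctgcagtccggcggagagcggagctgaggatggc
IFIT1 (chr10:89392373-89392672, plus strand): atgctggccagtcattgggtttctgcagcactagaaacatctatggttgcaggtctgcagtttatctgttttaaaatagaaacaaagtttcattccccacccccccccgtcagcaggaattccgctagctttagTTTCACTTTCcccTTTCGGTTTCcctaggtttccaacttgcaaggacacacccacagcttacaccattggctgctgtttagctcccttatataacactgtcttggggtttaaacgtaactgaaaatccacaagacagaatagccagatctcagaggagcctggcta

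The core of GBP1 began 127 bases before the start, that of IFI44 18 bases before it and that of PARP14 29 bases before it. IFI44L carried the same core in both copies of a repeated stretch, 164 and 73 bases before the start, and HERC5 held 3 matches, of which the first 2 overlap. A match is a run of letters and was not tested for binding.

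The basal level of the members differed widely, as the plot of all members by library shows. IFITM3, a membrane protein that blocks virus entry, was the most abundant at 111.5 TPM averaged over the 6 libraries, and 14 members reached 10 TPM. At the other end, 14 members stayed under a mean of 1 TPM and were not tested in the main fit. These included genes that are among the most strongly induced by type I interferon in other settings, namely IFIT1 (0.48 TPM), MX1 (0.368 TPM), IFI27 (0.337 TPM) and CMPK2 (0.04 TPM). RSAD2, which encodes the antiviral enzyme viperin, was listed at 0 in all 6 libraries. The other untested members were DDX60, IFIT2, OAS1, OAS2, GBP3, BST2, ISG20, XAF1 and EPSTI1.

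**Figure D1:**
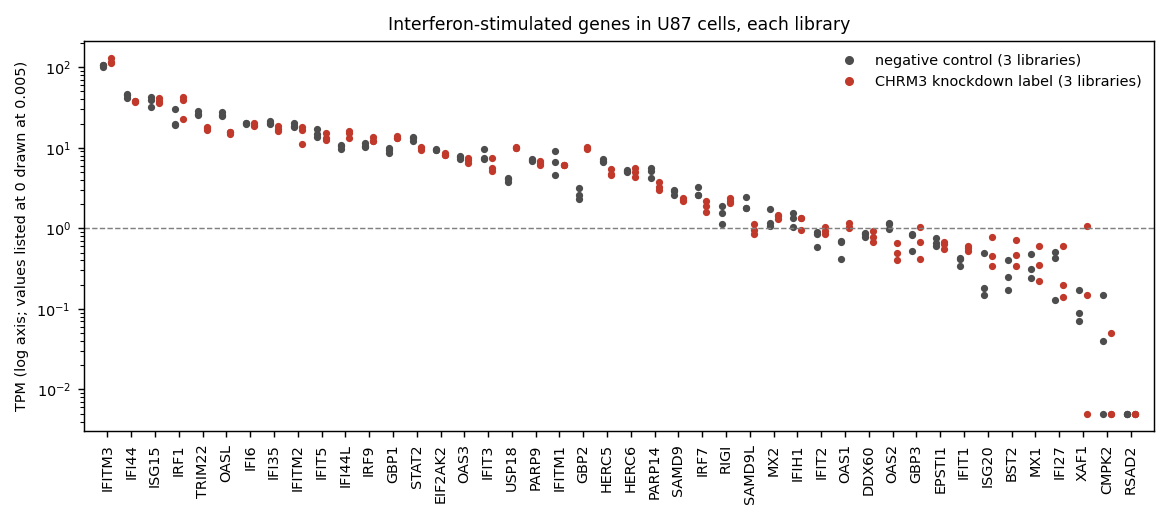
TPM (log axis) of the 44 members in each library, ordered by the mean over 6 libraries; grey points are the 3 controls, red points the 3 knockdown-labelled libraries, values listed at 0 are drawn at 0.005 and the dashed line is the 1 TPM limit for testing. Levels fall from above 100 TPM for IFITM3 to 0 for RSAD2, and 14 members lie under the line on average.

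After knockdown the tested members moved in both directions. Of the 30 tested, 6 rose, 9 fell and 15 did not pass. Of all tested genes 36.1% passed. The members that rose were GBP2, USP18, GBP1, IFI44L, IRF9 and IFITM3 (20.0% of those tested, against 12.1% of all genes). The members that fell were OASL, SAMD9L, TRIM22, PARP14, HERC5, STAT2, IFI35, IFI44 and EIF2AK2 (9 of 30, against 24.0% of all genes). No test of these shares against all genes was made. The median log2 fold change was -0.12 over the 30 members and -0.06 over all 13722 genes. A log2 fold change of at least 1 was reached by GBP2 and USP18 among those that rose (92 genes, 0.670%, of all tested). It was reached by 0 of the members that fell, against 164 of all 13722 tested genes. At an unadjusted limma p under 0.05 the falls of this size were 0 among the members and 181 among all tested genes. The 1 TPM added before the log understates changes of low genes. SAMD9L went from a mean of 2.02 to 0.977 TPM, a ratio of 0.483, at a log2 fold change of -0.61. The 3 values of 1 group lay wholly above or below those of the other for 20 of the 30 members (66.7%), against 50.2% of all tested genes. After median-of-ratios scaling, which moved the median of all genes to 0.00, 6 members rose and 7 fell, while over all genes the split went from 1660 higher and 3295 lower to 2306 higher and 2250 lower.

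**Figure D2:**
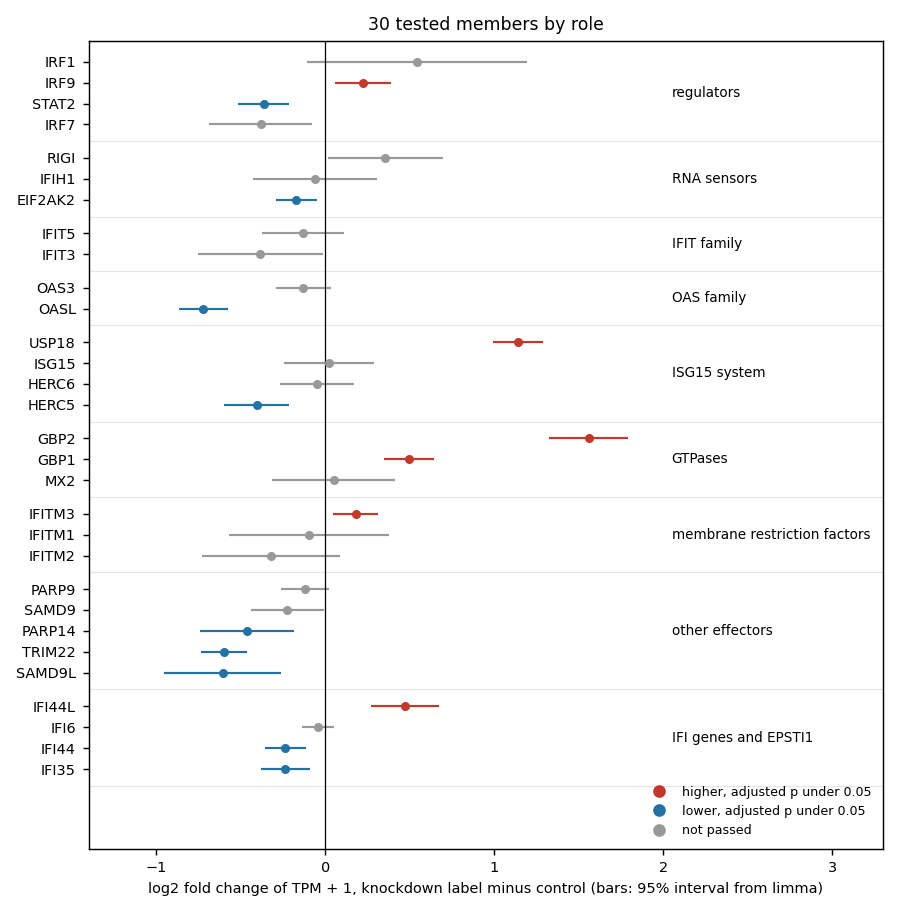
Log2 fold change of TPM + 1 (knockdown label minus control) of the 30 tested members, grouped by role, with 95% intervals from limma; red passed as higher, blue as lower and grey did not pass. GBP2 and USP18 lie beyond 1, and both the rising and the falling members are spread over several role groups.

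Among the GTPases, the guanylate-binding proteins GBP1 and GBP2 rose. They belong to a family of interferon-induced GTPases that attack intracellular pathogens and respond most strongly to interferon gamma. GBP2 (ENSG00000162645, chr1:89106132-89150456, GRCh38) was 2.61, 3.2 and 2.33 TPM in the controls and 9.84, 9.65 and 10.18 TPM in the knockdown-labelled libraries. Every knockdown-labelled library was thus far above the highest control, and the means were 2.71 ± 0.444 and 9.89 ± 0.269 TPM (SD, n = 3 each). The log2 fold change of GBP2 was 1.56 (SE 0.0976, limma adjusted p = 9.44e-05), the largest rise among the 30 tested members. GBP1 (ENSG00000117228, chr1:89052319-89065360), whose promoter is shown above, was 8.73, 9.31 and 10.04 TPM in the controls and 14.02, 13.38 and 13.37 TPM in the knockdown-labelled libraries, 0.50 higher on the log2 scale (SE 0.0609, limma adjusted p = 0.00134). The neighbouring GBP3 was under 1 TPM on average, between 0.42 and 1.05 TPM, with overlapping groups. The dynamin-like antiviral GTPase MX2 was 1.18, 1.75 and 1.06 TPM in the controls and 1.43, 1.3 and 1.45 TPM after knockdown (limma adjusted p = 0.83), and MX1 did not exceed 0.61 TPM in any library.

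In the ISG15 system, a ligase fell and the modifier itself did not pass. The deconjugating enzyme rose, with values that are uncertain for the reason given in the next paragraph. ISG15 is a ubiquitin-like protein attached to other proteins, HERC5 is its main ligase in human cells, and USP18 removes it and also dampens signalling from the type I receptor. ISG15 was 38.99, 32.03 and 43.19 TPM in the controls and 36.24, 41.36 and 37.74 TPM after knockdown (limma adjusted p = 0.899). HERC5 (ENSG00000138646, chr4:88457117-88506163) fell from 7.16, 6.59 and 6.76 TPM to 5.46, 4.71 and 4.6 TPM, a difference of -0.41 on the log2 scale (SE 0.0789, limma adjusted p = 0.00869). Its neighbour HERC6 was 5.06, 5.16 and 5.35 TPM in the controls and 5.04, 4.37 and 5.59 TPM after knockdown, and its groups overlapped. USP18 (ENSG00000184979, chr22:18149899-18177397) was 4.06, 3.73 and 4.17 TPM in the controls and 9.81, 10.09 and 10.07 TPM in the knockdown-labelled libraries, 3.99 ± 0.229 against 9.99 ± 0.156 TPM (SD, n = 3 each). The difference of USP18 was 1.14 on the log2 scale (SE 0.0616, limma adjusted p = 5.46e-05).

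The rise of USP18 may depend on how reads were divided with a near-identical gene. Over 917 bases of its 2129-base transcript, USP18 matched a transcript of USP41 at 98.7% identity. USP41 was 8.54, 23.21 and 14.66 TPM in the controls and 19.48, 11.21 and 27.63 TPM in the knockdown-labelled libraries, a far wider spread with overlapping groups (limma adjusted p = 0.582). With both genes summed, an alternative chosen after seeing the data, the log2 fold change was 0.60 and no longer passed (limma adjusted p = 0.17). The values of USP18 alone are therefore uncertain.

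**Figure D3:**
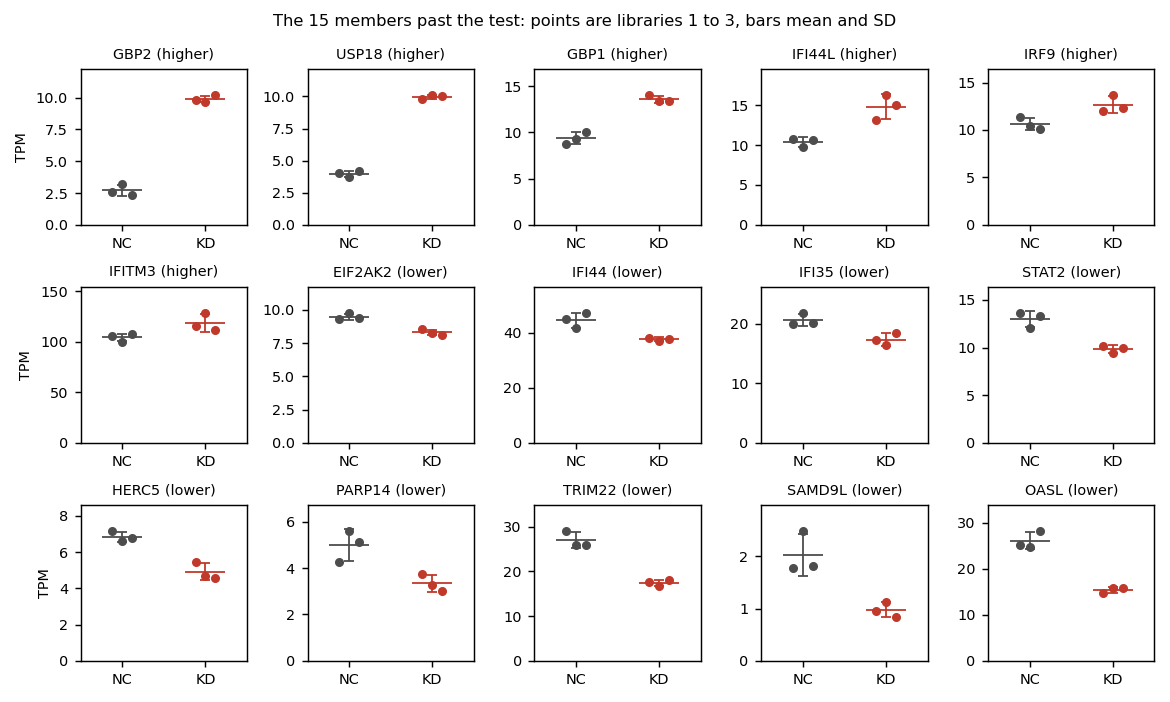
TPM of the 15 members that passed, each panel 1 gene with its axis from 0; points are libraries 1 to 3 of the normal control (NC, grey) and of the knockdown label (KD, red), and bars are the mean and SD (n = 3). The groups do not overlap in any of the 15 panels, which was largely set by choosing members that passed on these same values. Over all tested genes, 50.2% did not overlap. Among the 15, the separation is widest relative to the spread for USP18 and GBP2 and narrowest for IFITM3 and IRF9.

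Among the regulators, STAT2 fell and IRF9 rose, although both are parts of ISGF3. STAT2 (ENSG00000170581) went from 13.61, 12.01 and 13.29 TPM to 10.16, 9.4 and 9.97 TPM, a difference of -0.36 on the log2 scale (SE 0.0627, limma adjusted p = 0.00531). IRF9 went from 11.39, 10.46 and 10.15 TPM to 12, 13.66 and 12.29 TPM, with a log2 fold change of 0.23 close to the threshold (limma adjusted p = 0.0437). IRF9 did not pass in 9 of 16 alternative fits, among them those without control library 2 (adjusted p = 0.122) or 3 (0.129) and without knockdown-labelled library 1 (0.0573), 2 (0.117) or 3 (0.0845). Its whole 1838-base transcript is also contained in AL136295.5, an overlapping gene on the same strand that stayed between 0.76 and 1.69 TPM, and the sum of both passed (0.22 on the log2 scale, limma adjusted p = 0.0242). IRF1, a factor induced by interferon gamma and by NF-kB, was 19.36, 19.94 and 30.71 TPM in the controls and 22.93, 42.15 and 39.64 TPM after knockdown. The groups overlapped because control 3 was high and knockdown-labelled library 1 was low, and the log2 fold change of 0.54 did not pass (SE 0.270, limma adjusted p = 0.166). IRF1 passed in 1 of 16 alternative fits, that without knockdown-labelled library 1, at 0.81 (limma adjusted p = 0.036). With any other library left out, its limma adjusted p was 0.1005 to 0.386. On the opposite strand, IRF1 overlaps C5orf56 over 1716 exonic bases (0.89 to 1.19 TPM) and AC116366.3 over 469 (3.13 to 3.99 TPM). The sources do not state whether counting used strand, so reads of these genes may not be separated. IRF7, which amplifies interferon production, was 3.22, 2.56 and 2.56 TPM in the controls and 1.9, 2.2 and 1.61 TPM after knockdown, without overlap, and just missed the threshold (log2 fold change -0.38, limma adjusted p = 0.0581).

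Of the 3 RNA sensors tested, 1 fell. EIF2AK2, the double-stranded RNA-activated kinase PKR, fell from 9.31, 9.75 and 9.37 TPM to 8.53, 8.24 and 8.14 TPM, -0.17 on the log2 scale (limma adjusted p = 0.0383) that was lost in 11 of 16 alternative fits. These included both other scalings and the removal of any 1 of the 6 libraries, where the adjusted p was 0.0628 to 0.112. RIGI, the helicase RIG-I, was 1.14, 1.9 and 1.54 TPM in the controls and 2.08, 2.38 and 2.18 TPM after knockdown. Its groups did not overlap, yet the log2 fold change of 0.36 did not pass (limma adjusted p = 0.0965). RIGI passed in 1 of 15 alternative fits, that without control library 2, at 0.46 (limma adjusted p = 0.0474). With any other library left out, its limma adjusted p was 0.137 to 0.199. IFIH1, the related helicase MDA5, was 1.05, 1.56 and 1.33 TPM in the controls and 0.95, 1.35 and 1.36 TPM after knockdown, with overlapping groups, and DDX60 was between 0.68 and 0.93 TPM.

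Of the IFIT proteins, which bind viral RNA through tetratricopeptide repeats, 0 of the 2 tested passed, while 1 of them, IFIT3, had an unadjusted limma p under 0.05. IFIT3 was 7.16, 9.76 and 7.52 TPM in the controls and 5.57, 5.12 and 7.38 TPM after knockdown, -0.38 on the log2 scale (limma adjusted p = 0.0996). Without knockdown-labelled library 3, which lay within the control range, it was -0.52 and passed (limma adjusted p = 0.0479). IFIT3 passed in this 1 of 16 alternative fits only. With any other library left out, its limma adjusted p was 0.115 to 0.258. IFIT5 was 12.54 to 16.96 TPM with overlapping groups. IFIT1 was 0.42, 0.34 and 0.43 TPM in the controls and 0.57, 0.6 and 0.52 TPM after knockdown, without overlap, and had an adjusted p of 0.238 in the limma fit without a limit on low values. IFIT2 overlapped, at 0.58 to 1.03 TPM.

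The OAS family makes the second messenger that activates RNase L, except for OASL, which lacks this activity and enhances RIG-I signalling. OASL (ENSG00000135114, chr12:121019111-121039242) had the largest fall among the tested members on the log2(TPM + 1) scale. With 0.5 TPM added in place of 1, SAMD9L fell further (-0.76 against -0.74 for OASL). With 0.1 TPM added, the values were -0.97 for SAMD9L and -0.75 for OASL. OASL was 25.24, 24.78 and 28.17 TPM in the controls and 14.67, 15.76 and 15.79 TPM after knockdown, 26.1 ± 1.84 against 15.4 ± 0.638 TPM (SD, n = 3 each). The difference of OASL was -0.72 on the log2 scale (SE 0.0609, limma adjusted p = 3.05e-04). OAS3 was 8.01, 7.31 and 7.77 TPM in the controls and 6.96, 7.42 and 6.5 TPM after knockdown, with overlapping groups. OAS1 and OAS2, which flank OAS3 on chromosome 12, were too low for the main test and differed in opposite directions. OAS1 was 0.42, 0.67 and 0.69 TPM in the controls and 1.03, 1.02 and 1.15 TPM after knockdown, whereas OAS2 was 1.14, 1.15 and 0.99 TPM and then 0.49, 0.41 and 0.66 TPM. Neither gene's groups overlapped. In the limma fit without a limit on low values OAS2 passed (log2 fold change -0.46, adjusted p = 0.0444) and OAS1 did not (0.38, adjusted p = 0.0964).

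Of the membrane proteins that restrict viruses, IFITM3 rose slightly, from 105.6, 100.1 and 107.4 TPM to 115.2, 128.4 and 112.1 TPM (log2 fold change 0.18, limma adjusted p = 0.0461), and did not pass in 9 of 16 alternative fits. Among these was the removal of any library but knockdown-labelled library 3, with adjusted p of 0.0703 to 0.138. IFITM1 was 9, 4.64 and 6.72 TPM in the controls and 6.04, 6.04 and 6.19 TPM after knockdown. IFITM2 was 18.65, 20.17 and 18.11 TPM in the controls and 17.98, 16.85 and 11.05 TPM after knockdown, without overlap but with library 3 apart from the others, and did not pass (limma adjusted p = 0.19). IFITM1 and IFITM2 share 382 bases at 99.7% identity, so their values depend on how reads were divided, and their sum did not pass either (log2 fold change -0.27, limma adjusted p = 0.138). BST2, or tetherin, did not exceed 0.71 TPM.

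The other effectors were lower where they passed. TRIM22 (ENSG00000132274, chr11:5689689-5737089), an antiviral E3 ligase, fell from 28.96, 25.98 and 25.84 TPM to 17.6, 16.69 and 17.96 TPM, a difference of -0.60 on the log2 scale (SE 0.0572, limma adjusted p = 0.000495). SAMD9L, an antiviral and growth-restraining protein, fell from 1.77, 2.48 and 1.81 TPM to 0.96, 1.13 and 0.84 TPM, a difference of -0.61 on the log2 scale (SE 0.144, limma adjusted p = 0.0186). SAMD9L was the single tested member with 1 group under 1 TPM on average, and it did not pass in the fit without a limit on low values. Its neighbour SAMD9 was 2.87, 2.61 and 2.96 TPM in the controls and 2.36, 2.22 and 2.21 TPM after knockdown, without overlap, and did not pass (limma adjusted p = 0.0993). PARP14, an ADP-ribosyltransferase, fell from 4.25, 5.6 and 5.14 TPM to 3.74, 3.27 and 3.01 TPM (log2 fold change -0.46, limma adjusted p = 0.022), a call lost in 6 of 15 alternative fits. Among these were the fits without control library 2 or 3 and knockdown-labelled library 2 or 3, with adjusted p of 0.0668 to 0.0724. PARP9 on the same locus was 7.13, 6.95 and 7.28 TPM in the controls and 6.18, 6.79 and 6.45 TPM after knockdown (limma adjusted p = 0.164), and shares 217 exonic bases with DTX3L on the opposite strand. XAF1 was 1.06 TPM in knockdown-labelled library 1 and at most 0.17 TPM elsewhere. ISG20 was between 0.15 and 0.77 TPM, with overlapping groups.

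Among the remaining members, IFI44L and IFI44 moved in opposite directions although they lie side by side (chr1:78619922-78646145 and chr1:78649796-78664078) and both carry the ISRE core. IFI44L rose from 10.79, 9.7 and 10.63 TPM to 13.18, 16.25 and 15.07 TPM, a difference of 0.47 on the log2 scale (SE 0.0838, limma adjusted p = 0.00595). IFI44 fell from 44.94, 41.6 and 47.09 TPM to 38.24, 36.85 and 37.89 TPM, a difference of -0.23 on the log2 scale (SE 0.0496, limma adjusted p = 0.012) that did not pass after quantile normalization. The ratio of their TPM was 0.233 ± 0.00718 in the controls and 0.394 ± 0.0482 after knockdown (SD, n = 3 each). Because IFI44L rose and IFI44 fell without overlap, their ratio had to separate the groups and adds no further evidence. IFI35 fell from 19.93, 21.8 and 20.12 TPM to 17.24, 16.38 and 18.49 TPM (log2 fold change -0.24, limma adjusted p = 0.0234) and did not pass in 8 of 16 alternative fits. Among these were both other scalings and the fits without control library 2 or 3 and knockdown-labelled library 1 or 2, with adjusted p of 0.0551 to 0.074. IFI6, a protein that restrains cell death, was 20.12, 19.78 and 20.16 TPM in the controls and 20.12, 18.82 and 19.29 TPM after knockdown (limma adjusted p = 0.449). EPSTI1 stayed between 0.56 and 0.75 TPM and IFI27 between 0.13 and 0.61 TPM.

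**Figure D4:**
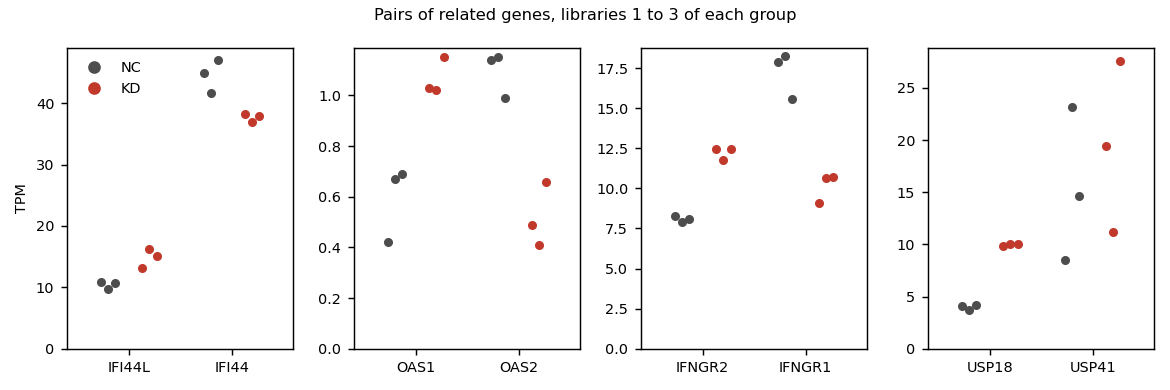
TPM of 4 pairs of related genes by library, on axes from 0; grey points are controls (NC) and red points knockdown-labelled libraries (KD). In the pairs IFI44L and IFI44, OAS1 and OAS2, and IFNGR2 and IFNGR1, the first gene is higher and the second lower after knockdown with no overlap, whereas USP41 overlaps between groups and spreads from 8.54 to 27.63 TPM.

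Upstream of these genes, 10 interferon genes (IFNB1, IFNA1, IFNA2, IFNE, IFNK, IFNW1, IFNG, IFNL1, IFNL2 and IFNL3) were each listed at 0 TPM in all 6 libraries. Of these, IFNB1, IFNW1, IFNA2, IFNA1 and IFNE lie on chromosome 9 between 21077105 and 21482313, next to MTAP and CDKN2A, which were listed at 0 to 0.01 TPM. U87 is known to lack CDKN2A. IFNK, IFNG, IFNL1, IFNL2 and IFNL3 lie outside this stretch and were listed at 0 as well. Whether any interferon gene is missing from the DNA of these cells was not tested. Of 13 genes for interferon receptors and their signalling, 12 were tested, of which 1 rose and 4 fell (41.7% passed, near the 36.1% of all tested genes). The chains of the interferon gamma receptor moved apart. IFNGR1, the ligand-binding chain, fell from 17.89, 18.23 and 15.56 TPM to 9.08, 10.63 and 10.74 TPM (log2 fold change -0.71, SE 0.0868, limma adjusted p = 0.00132). IFNGR2, the chain that brings JAK2 to the receptor, rose from 8.25, 7.89 and 8.09 TPM to 12.46, 11.76 and 12.44 TPM (log2 fold change 0.54, SE 0.0496, limma adjusted p = 0.000414). Smaller falls were those of TYK2, JAK1 and IFNAR1, with log2 fold changes of -0.27, -0.21 and -0.20. Their limma adjusted p were 0.0439, 0.0012 and 0.0491. In the limma fit without a limit on low values TYK2 and IFNAR1 did not pass (adjusted p = 0.109 and 0.102). The feedback inhibitors SOCS1 and SOCS3 did not pass.

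Of 11 genes that sense nucleic acids or relay the signal to interferon, 9 were tested, of which 0 rose (0 also at an unadjusted limma p under 0.05) and 3 fell (33.3% passed, near the 36.1% of all tested genes). IRF3, the factor that starts interferon transcription, was 96.59, 99.64 and 88.86 TPM in the controls and 73.46, 64.77 and 70.21 TPM after knockdown, a difference of -0.45 on the log2 scale (SE 0.0604, limma adjusted p = 0.00199). Its kinase TBK1 and the RNA editor ADAR each fell by 0.19 on the log2 scale. CGAS, the sensor of cytosolic DNA, did not exceed 0.04 TPM.

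A further 47 interferon-stimulated genes outside the member list were also examined. Of the 34 tested, 3 rose and 10 fell (38.2% passed, against 36.1% of all tested genes), with a median log2 fold change of -0.09. The 10 that fell became 5 with quantile normalization and 6 without knockdown-labelled library 2. TRIM5, MOV10 and IFI16 rose by log2 fold changes of 0.39, 0.27 and 0.24. ZNFX1 had the largest fall, from 16.4, 16.32 and 16.22 TPM to 11.05, 11.14 and 11.12 TPM (log2 fold change -0.52, SE 0.0389, limma adjusted p = 1.94e-04), followed by SLFN5 with -0.40. None of the 34 reached a log2 fold change of 1 in either direction, at an adjusted or an unadjusted limma p under 0.05. Of all 13722 tested genes only 256 (1.87%) did so at the adjusted p, so few would be looked for among 34. The interferon-induced chemokines CXCL9, CXCL10 and CXCL11 were listed at 0 TPM in all 6 libraries. CIITA, the interferon gamma-inducible transactivator of MHC class II genes, was 1.47, 1.94 and 1.94 TPM in the controls and 4.08, 2.82 and 3.32 TPM after knockdown (log2 fold change 0.66, limma adjusted p = 0.0129). The class II genes CD74 and HLA-DRA rose by far more, with log2 fold changes of 2.07 and 2.79. Of 5 NF-kB target genes, a list chosen with earlier results of these data known, 4 were lower (80.0%, against 24.0% of all tested genes). The log2 fold changes were -3.13 for IL1B, -2.06 for CXCL8, -0.30 for TNFAIP3 and -0.28 for NFKBIA, while ICAM1 did not pass. The study also reports CXCL8 as reduced. No test of this share against all genes was made.

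**Figure D5:**
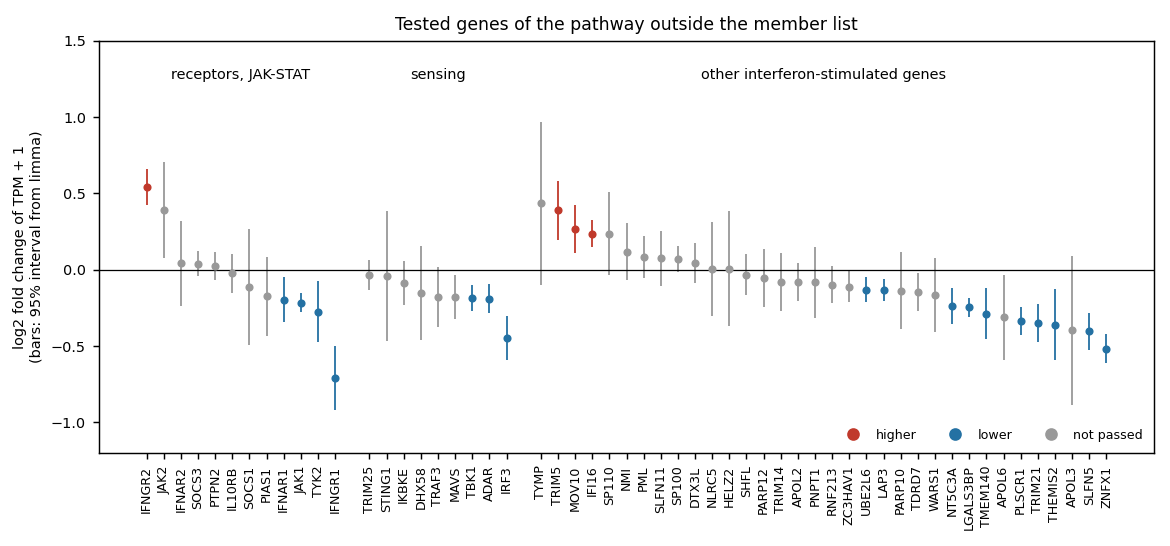
Log2 fold change of TPM + 1 (knockdown label minus control) with 95% limma intervals for the tested genes of 3 lists outside the members, namely receptors with JAK-STAT signalling, nucleic acid sensing and other interferon-stimulated genes; red passed as higher, blue as lower and grey did not pass. Within these 3 lists IFNGR2 and IFNGR1 are the extremes at 0.54 and -0.71, and the 3 sensing genes that passed lie below 0.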

How the data were processed

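RNA of U87 cells was sequenced in read pairs, and the authors deposited TPM per gene for 6 libraries, rounded to 2 decimals. The submitters' processing notes name fastp, RSEM and the build GRCh38.p13; the aligner, annotation and versions are not given in the sources used here. The labels name SMARTer and RNeasy kits, the methods TruSeq and TRIzol. TPM keeps no read depth, so depth is unknown, no counting interval is given, and an entry of 0 may be a failed estimate. The members and gene lists were chosen with earlier results of these data known. All columns were matched to samples by title.

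Differences were tested with limma 3.58.1 in R 4.3.3 (lmFit, eBayes with a mean-variance trend) on log2(TPM + 1) for genes averaging 1 TPM or more, with the group as the only term. This scale understates changes of low genes. The procedure was tested on simulated data. Members that passed and the tested members of their role groups are given by library, and the rest mostly by range; the library values of IFIT1, IFIT3, OAS1 and OAS2 were chosen for printing after they were seen. Non-members are named from lists fixed for the pathway and for cell types, and from the overlap search. The counts of a list include its unnamed genes. An item left out of these counts is not reported here. Coordinates are from GENCODE 29 (GRCh38). Shared sequence was searched with BLAST 2.17.0 at 95% identity over at least 200 bases. Alternatives varied the pseudocount, the limit on low values, the scaling, the trend, the replicate block, the fold limit and the libraries.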

Additional observations from a re-analysis of the deposited data

How the results depend on the processing

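The depth of these libraries is unknown and each group has 3, which limits what can be called near 1 TPM. Of the 15 members that passed, STAT2, OASL, HERC5, GBP1, GBP2, TRIM22 and IFI44L passed in every one of the 16 alternative fits that tested them, and no member that passed changed sign in any of them. The cause of the changes below was not tested, except for the limit on the fold change, which by its construction keeps fewer genes.

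The replicate block, a term for the replicate number, gave 4 members higher and 6 lower, against 6 and 9, while the share called over all genes went from 36.1% to 29.2%. The correlation of deviations from the group mean was -0.0198 to 0.0341 for same-numbered libraries. For differently numbered libraries it was -0.0656 to 0.0336. No pairing by number was thus seen, but such values over all genes cannot exclude a shared culture or batch. Over the fits that each left out a library, 4 to 5 members were higher and 6 to 8 lower, with 27.8% to 30.6% of all genes called. There were 4 higher, 1.5 times fewer, without control library 3 or knockdown-labelled library 2. When the log2 fold change also had to reach 1 in size, 2 members were higher and 0 lower, and 0 of the other interferon-stimulated genes were higher and 0 lower. Over all 13722 tested genes, 92 were then higher and 164 lower. The number of other interferon-stimulated genes that fell was 10, and it was 5 with quantile normalization and between 6 and 10 when a library was left out, the lowest without knockdown-labelled library 2. The median log2 fold change of the members was -0.1244, and moved to -0.0493 with no limit on low values (43 members), -0.0461 with a limit of 0.1 TPM (42 members), -0.0622 with median-of-ratios scaling and -0.0621 with quantile normalization. It was -0.1586 to -0.1029 when a library was left out. Members that did not pass and lay near 0 changed sign. With quantile normalization IFIH1 was 0.0022, HERC6 0.0133 and IFI6 0.0356, and with median-of-ratios scaling HERC6 was 0.0089 and IFI6 0.0238. When a library was left out, the log2 fold change was -0.1433 to 0.0317 for IFIH1, -0.0939 to 0.1161 for ISG15, -0.1199 to 0.0277 for HERC6, -0.0334 to 0.175 for MX2 and -0.3096 to 0.1036 for IFITM1.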
